A study of Mus musculus with 203 samples.

Results

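Transcripts of the immunoglobulin heavy chain constant genes were followed through the airways and lung parenchyma of mice exposed to house dust mite (HDM), cigarette smoke (CS) and dexamethasone (DEX). The members were 9 genes chosen by name, not by a rule on their values, although earlier results of these data were known. They were Ighm, Ighd, Ighg1, Ighg2b, Ighg2c, Ighg3, Igha and Ighe, and Pigr, the receptor that carries polymeric antibody across epithelium. All 9 were found among the 43346 genes of the count table. The mice were female Balb/C aged 18 to 20 weeks by the labels, and the bulk RNA-seq libraries fell into 20 groups of 10 to 12. In the 3 week experiment, HDM extract or phosphate buffered saline (PBS) was given intranasally on 5 days per week, with 11 PBS and 10 HDM libraries of airway and 12 PBS and 10 HDM libraries of parenchyma. In the 11 week experiment HDM or PBS was given 3 times per week from week 4 to week 11, after a first phase on 5 days per week as the labels were read, with normal air (AIR) or smoke 2 times per day on 5 days per week over 8 weeks, and with or without DEX in week 11. These made the groups PBS.AIR, PBS.AIR.DEX, PBS.CS, PBS.CS.DEX, HDM.AIR, HDM.AIR.DEX, HDM.CS and HDM.CS.DEX, with 10 libraries of each in each tissue. Airway and parenchyma were separated by blunt dissection, and library codes were not stated to pair the tissues of one mouse. The labels did not state that libraries of one group came from separate mice, so p-values measure the spread between libraries.

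A B cell first makes IgM and IgD, which share the same variable region, and then exchanges the constant region for that of an IgG, IgE or IgA class by class switch recombination, a deletion of the DNA between them. Interleukin 4 directs mouse B cells to IgG1 and IgE, interferon gamma to the IgG2a/IgG2c class, and transforming growth factor beta to IgA and IgG2b. IgM and IgA are joined into polymers by the J chain (Jchain), and the polymeric immunoglobulin receptor of airway epithelium takes those polymers to the lumen as secretory antibody. HDM models in Balb/C mice are known for IgG1 and IgE responses to the allergen. Balb/C mice carry the IgG2a gene where the reference strain carries Ighg2c, so values under Ighg2c are reads assigned to that reference gene. Gene-level counts do not separate membrane from secreted transcripts, nor the germline transcripts that precede switching from those of switched cells. In bulk tissue, fewer cells of a type and less RNA per cell cannot be told apart.

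The 8 heavy chain genes lie on the minus strand of chromosome 12 (GRCm38, GENCODE M21) in the order in which they can be reached by switching, from Ighm (chr12:113418558-113422730) and Ighd through Ighg3, Ighg1 (chr12:113325240-113330523), Ighg2b, Ighg2c and Ighe to Igha (chr12:113254830-113260236), and Pigr lies on chromosome 1 (chr1:130826684-130852249). The IgG subclasses are close copies that differ most in the hinge, which is coded by the second exon and holds the cysteines that bridge the 2 heavy chains. The 4 hinge exons are shown as a stretch in which the IgG genes differ, 5′ to 3′ on the coding strand with cysteine codons in capitals.
Ighg1 hinge exon, chr12:113329844-113329882: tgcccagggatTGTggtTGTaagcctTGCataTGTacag
Ighg2b hinge exon, chr12:113307261-113307326: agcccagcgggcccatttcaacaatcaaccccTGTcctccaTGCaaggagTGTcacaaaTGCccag
Ighg2c hinge exon, chr12:113288263-113288325: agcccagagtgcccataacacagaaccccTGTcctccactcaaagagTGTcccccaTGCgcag
Ighg3 hinge exon, chr12:113360529-113360576: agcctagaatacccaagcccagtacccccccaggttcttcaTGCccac

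The hinge exons were 39 bases with 4 cysteine codons in Ighg1, 66 bases with 4 in Ighg2b, 63 bases with 3 in Ighg2c and 48 bases with 1 in Ighg3. The longest stretch identical between 2 members was 78 bases of exon 3, shared by Ighg2b (chr12:113306869-113306946) and Ighg2c (chr12:113287869-113287946). It is shown as the closest match between members. No stretch of 100 bases, the read length, was identical between them (0 of 2578 such windows in Ighg2b and 0 of 1226 in Ighg2c).
Ighg2b and Ighg2c shared run: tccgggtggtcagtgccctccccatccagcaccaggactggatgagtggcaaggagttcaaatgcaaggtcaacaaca

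Estimated counts were not whole in 85.2% of the libraries with Ighg2b reads, 88.3% of those with Ighg2c and 25.8% of those with Ighg3, against 0.985% for Ighg1 and 0 for the other members. In the libraries with at least 20 counts of both, the log2 ratio of Ighg2b to Ighg2c counts had a median of 3.99 and ranged from -0.36 to 4.97. How much of the Ighg2c signal came from Ighg2b reads was not tested, and the values of this pair are uncertain for that reason.

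Libraries held 13003154 to 40240733 counts, with a median of 28090684, and levels are given as counts scaled to a common library size (CPM) after trimmed mean of M-values (TMM) scaling. The tissue labels were checked by hand-written marker lists, each summed in CPM: the alveolar list ran from 17743 to 34094 in the medians of the 10 parenchyma groups and from 10530.2 to 22084 in those of the airway groups, and the smooth muscle list from 149.6 to 245 and from 402 to 1298. Both dissections held alveolar and muscle transcripts, in different amounts. A list of 10 lymph node genes stood over 2 times the median of the group in 17 airway and 2 parenchyma libraries, at most 5.003 times. The lowest total was that of the HDM.AIR.DEX parenchyma library X32, in which 33.7% of the counts fell on Gm42418, a gene over a ribosomal RNA repeat, against at most 3.77% in any other library. Single libraries that set a value, such as the 3 week PBS airway library X21 and the 11 week PBS.AIR parenchyma library X126, are named beside the results.

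Across the groups, Ighm, Igha and Ighg1 reached the highest medians and Ighe was near the limit of detection. Ighg1 was not abundant in every group: its PBS.AIR airway median of 13.3 CPM lay below the 19.7 CPM of Ighd. Ighe, the heavy chain of the antibody that arms mast cells, had 0 counts in 96 libraries of all groups, at most 54 in any, and at most 3 in every library of 4 of the 20 groups. Ighg1 ran from a median of 3.12 CPM in PBS.AIR.DEX parenchyma to 17266 CPM in HDM.AIR airway. The median of Pigr spanned 89.7 CPM in PBS.AIR parenchyma to 1578 CPM in 3 week HDM airway. In the airway, Ighg1 medians stood in the order PBS.AIR.DEX (9.94 CPM), PBS.AIR (13.3), PBS.CS.DEX (15.2), PBS.CS (73.8), 3 week PBS (111.5), 3 week HDM (1329.8), HDM.CS.DEX (2818), HDM.AIR.DEX (3528), HDM.CS (6595) and HDM.AIR (17266). The ranges of every pair of neighbours in that order overlapped.

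**Figure D1:**
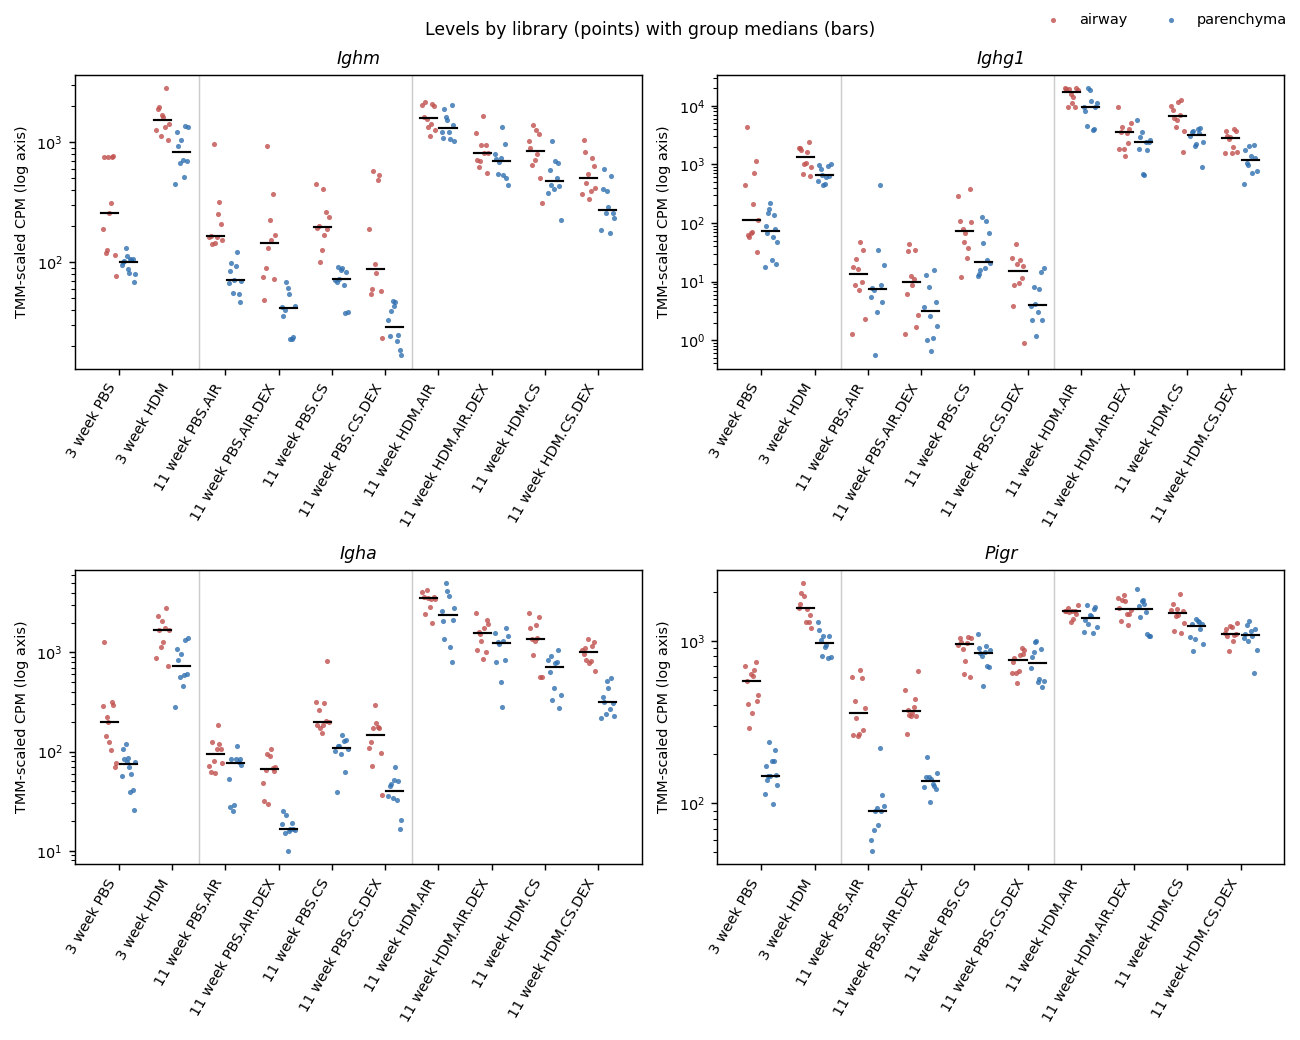
TMM-scaled CPM (log axis) of Ighm, Ighg1, Igha and Pigr in each airway (red) and parenchyma (blue) library, with bars at group medians. The 11 week HDM groups stand at the right of each panel, and Ighg1 medians there run from 1174 to 17266 CPM, and all 11 week PBS medians lie at or below 73.8 CPM.

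The 3 week comparison of HDM with PBS addressed the early response to the allergen. After 3 weeks of HDM, every class above the filter other than Ighd rose in both tissues. In the airway, 7 of the 8 members tested were called higher, against 12.1% of all genes tested, and in the parenchyma 7 of 8, against 14.5%. A call required an adjusted p under 0.05 and a log2 fold change (log2FC) of at least 1 or at most -1. Ighe did not pass the filter at 3 weeks and was not tested, at 0 to 1.09 CPM in HDM airway and 0 to 0.215 CPM in PBS airway.

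IgM transcripts increased in each tissue. Ighm was 76.3 to 778 CPM with a median of 257 in the PBS airway and 1058 to 2855 CPM with a median of 1532 in the HDM airway (log2FC 2.49 ± 0.34, adjusted p = 2e-08). In the parenchyma it was 68.8 to 131.3 CPM with a median of 101 under PBS and 453 to 1369 CPM with a median of 825 under HDM (log2FC 3.06 ± 0.31, adjusted p = 5e-12). Each of the 10 HDM libraries exceeded the highest PBS library, in airway and parenchyma alike. Ighd is expressed with Ighm by naive B cells. Its log2FC was 0.94 ± 0.19 in the airway, which passed the adjusted p alone (2.3e-05), and 0.16 ± 0.19 in the parenchyma (adjusted p = 0.45). The log2 ratio of Ighm to Ighd counts had a median of 1.38 in PBS and 4.31 in HDM parenchyma, with no overlap between the groups.

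The switched classes rose too. Ighg1 in the parenchyma was 17.7 to 217 CPM with a median of 72.7 under PBS and 439.8 to 996 CPM with a median of 649 under HDM (log2FC 3.29 ± 0.58, adjusted p = 2.4e-06), and all 10 HDM libraries exceeded all PBS libraries. In the airway the PBS libraries ran from 31.8 to 4372 CPM around a median of 111.5, and the HDM libraries from 639.8 to 2401 CPM (log2FC 2.65 ± 0.64, adjusted p = 0.00029). The highest PBS value was that of X21, whose summed plasma cell list was also 4.49 times the median of its group. The airway Ighg1 call was lost with edgeR (log2FC 1.04, adjusted p = 0.11) and DESeq2 (log2FC 1.05, adjusted p = 0.084) on all libraries, and was 2.23 (adjusted p = 0.00015) with edgeR once X21 was left out. Its adjusted p was 2.9e-06 to 0.11 over 11 alternatives. Of the rarer IgG genes, Ighg2b rose by log2FC 4.01 and 4.41 in airway and parenchyma, Ighg2c by 4.26 and 4.92, and Ighg3, the class typical of responses to polysaccharide, by 5.16 and 5.35. Igha, the heavy chain of mucosal antibody, rose by 2.94 ± 0.38 and 3.43 ± 0.34 (adjusted p = 5.7e-09 and 4.9e-12).

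The epithelial receptor of IgA and IgM rose as well. Pigr was 289 to 745 CPM with a median of 564 in the PBS airway and 1198 to 2256 CPM with a median of 1578 in the HDM airway (log2FC 1.61 ± 0.16, adjusted p = 1.2e-11). In the parenchyma it was 99.8 to 238 CPM with a median of 148.4 and 788 to 1298 CPM with a median of 974 (log2FC 2.59 ± 0.14, adjusted p = 1.4e-19). The groups did not overlap in either tissue. The difference of the HDM effect between the tissues was called for no member at 3 weeks by limma-voom, with 2 at an unadjusted p under 0.05, 0 called by edgeR and 2 by DESeq2, beside 2.21% of all genes called. The members that DESeq2 called were Ighm and Pigr. By limma-voom, Pigr at -0.98 ± 0.22 (adjusted p = 0.0022) and Ighd at 0.78 ± 0.26 (adjusted p = 0.036) passed the adjusted p alone, on the scale of airway less parenchyma.

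After the 11 week protocol without smoke, Ighg1 became the dominant heavy chain transcript of the lung. In the airway 8 of 9 members were called higher, against 10.6% of all genes tested, and in the parenchyma 8 of 9, against 13%. Ighd passed the adjusted p alone in both. Ighg1 was 1.25 to 46.9 CPM with a median of 13.3 in PBS.AIR airway and 9412 to 20199 CPM with a median of 17266 in HDM.AIR airway (log2FC 10.46 ± 0.66, adjusted p = 1.7e-31). In the parenchyma it was 0.552 to 453 CPM with a median of 7.38 and 3936 to 19863 CPM with a median of 9575 (log2FC 9.96 ± 0.66, adjusted p = 1.1e-29). Each of the 10 HDM libraries exceeded every PBS library in both tissues, including X126, the PBS.AIR parenchyma library at 453 CPM.

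The other classes followed at smaller sizes. Ighg2b was 2.44 to 19.6 CPM with a median of 5.37 in PBS.AIR airway and 292 to 1855 CPM with a median of 1058 in HDM.AIR airway (log2FC 7.50 ± 0.63, adjusted p = 1.4e-21), and its log2FC in the parenchyma was 7.09 ± 0.68. Igha was 60.9 to 185.8 CPM with a median of 93.5 and 1994 to 4302 CPM with a median of 3523 in the same airway groups (log2FC 5.14 ± 0.32, adjusted p = 4.5e-32), and rose by 5.34 ± 0.31 in the parenchyma. Every HDM.AIR library stood above every PBS.AIR library for both genes in both tissues. Ighm rose by 2.95 ± 0.37 in the airway and 4.30 ± 0.36 in the parenchyma, Ighg2c by 7.48 and 7.71, and Ighg3 by 4.77 and 6.74. Pigr rose from a median of 359.6 to 1517 CPM in the airway (log2FC 1.99 ± 0.15, adjusted p = 1.5e-24) and from 89.7 to 1380.1 CPM in the parenchyma (log2FC 4.02 ± 0.14, adjusted p = 2.7e-57), with no overlap of the groups.

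IgE transcripts were rare. Ighe passed the filter in this fit but not in the 3 week fit, although its levels in HDM mice were similar. Its median was 0.418 CPM in 3 week HDM airway and 0.567 CPM in HDM.AIR airway. In the parenchyma of the same groups it was 0.222 and 0.254 CPM. The ranges overlapped in both tissues. Ighe was at most 0.0884 CPM in PBS.AIR airway, where no library had more than 3 counts, and 0.0710 to 1.60 CPM with a median of 0.567 in HDM.AIR airway, where the highest library had 44 counts. Against a floor of 3 counts per PBS library the mean of HDM.AIR airway was at least 6.47-fold higher. The fitted log2FC of 4.70 (adjusted p = 8.1e-09) depends on the prior count and is no bound. In HDM.AIR parenchyma Ighe was 0 to 0.926 CPM with a median of 0.254 (log2FC 2.86 ± 0.76, adjusted p = 0.00055). Per kilobase of exon, the median of Ighg1 in HDM.AIR airway was 6661 CPM and that of Ighe 0.357 CPM.

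**Figure D2:**
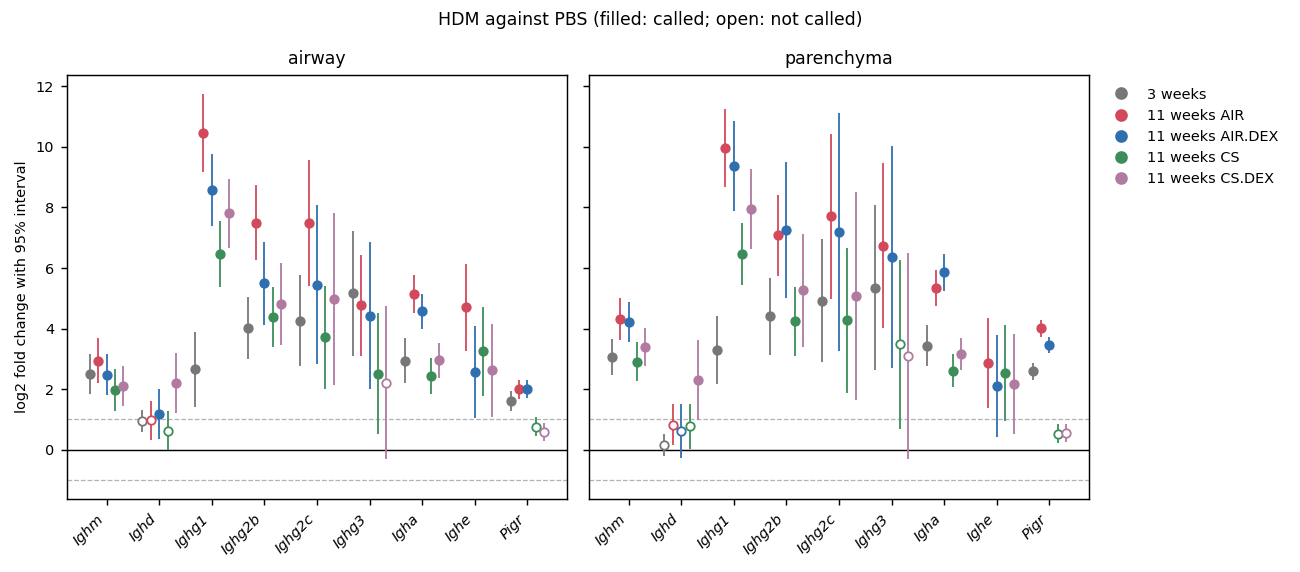
log2FC of HDM against PBS with 95% intervals for the 9 members at 3 weeks and in the 4 exposure settings at 11 weeks (colours), in airway and parenchyma. Filled points were called and open points were not, and dashed lines mark a log2FC of 1 and -1. Ighg1 reached 10.46 in the 11 week airway without smoke against 2.65 at 3 weeks, whereas Ighm stood at 2.95 and 2.49.

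HDM raised the heavy chains in the other 3 settings of the 11 week experiment as well, and these comparisons have their own PBS groups. With DEX and air, 9 of 9 members were called higher in the airway (background 7.95%) and 8 of 9 in the parenchyma (8.54%), with Ighg1 at log2FC 8.58 and 9.37. With smoke, 7 of 9 were called higher in the airway (3.9%) and 6 of 9 in the parenchyma (2.71%), with Ighg1 at 6.46 and 6.46. With smoke and DEX, 7 of 9 were called higher in each tissue (4.59% and 3.35%), with Ighg1 at 7.81 and 7.96. Ighg1 did not overlap between HDM and PBS libraries in any of these 6 comparisons. Ighd was called higher in 3 of them, at 1.18 in the airway with DEX and at 2.20 and 2.30 with smoke and DEX. Some of these calls were lost with edgeR: Ighd in the airway with DEX was at 0.82 (adjusted p = 0.092, 0.0067 to 0.1 over 12 alternatives), and Ighe there, where the PBS.AIR.DEX airway library X67 had 54 counts, at 0.44 (adjusted p = 0.64, 0.00068 to 0.77 over 11 alternatives). Ighg3 in the smoke airway was at 0.62 (adjusted p = 0.55, 0.045 to 0.61 over 12 alternatives). Where no PBS library had more than 3 counts, the floor gave a mean Ighg2c level at least 75.6-fold higher in the parenchyma with DEX. For mean Ighe in the parenchyma the bounds were 2.22-fold with smoke and 1.47-fold with smoke and DEX. In HDM.CS parenchyma Ighe had a mean of 0.246 and a median of 0.0748 CPM, with a highest library of 1.29 CPM. In HDM.CS.DEX parenchyma these were 0.157, 0.0571 and 0.7285 CPM, so the Ighe bounds do not describe a typical library.

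Isotype balance was described as the share of each class in the summed heavy chain transcripts of a library, each count divided by exon length, with no test. Reads of the Balb/C IgG2a gene entered these sums only where they were assigned to a reference gene. At 3 weeks the major classes kept overlapping shares while the total differed. The summed level had a median of 306 CPM per kilobase in PBS airway and 2066 in HDM airway. Ighm held a median share of 40.98% in PBS airway and 39.9% in HDM airway, Ighg1 26.9% and 22.3%, and Igha 20.6% and 28.4%. In the parenchyma these medians were 39.1% and 40.4% for Ighm, 20.6% and 24.96% for Ighg1, and 19.5% and 25.8% for Igha. The ranges of the 2 exposures overlapped for each of these 3 classes in both tissues. The smaller classes differed more: the median share of Ighd was 15.6% in PBS parenchyma (8.26% to 23.04%) and 2.12% in HDM parenchyma (1.15% to 3.03%), with no overlap, and that of Ighg2b 1.83% and 5.95%. Which class led depended on the length used. By gene length Ighm led in 19 of 20 HDM libraries and 16 of 23 PBS libraries, by counts in 11 and 12, and by the length of the secreted transcript in 2 and 7, where Igha led in 11 and 6 and Ighg1 in 7 and 10.

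At 11 weeks IgG1 led the balance in HDM mice, and IgM or IgA in PBS mice. The summed level had a median of 138.8 CPM per kilobase in PBS.AIR airway and 9331 in HDM.AIR airway. Ighg1 held 0.371% to 7.51% of the heavy chain transcripts in PBS.AIR airway (median 2.18%) and 62.2% to 74.3% in HDM.AIR airway (median 68.9%), while the median of Ighm was 64.9% and 9.44%. In the parenchyma the median Ighg1 share was 3.64% under PBS.AIR and 65.5% under HDM.AIR, and one PBS library, X126, held 57.9%. Igha made up a median of 21.1% and 14.3% in the 2 airway groups, so its share was smaller although its level was higher. Ighg1 was the leading class in 77 of the 80 HDM libraries of the 11 week experiment and in 2 of the 80 PBS libraries, 58 of which were led by Ighm and 20 by Igha. By secreted transcript length Ighg1 led in 79 of the HDM libraries and in 2 of the PBS libraries, and Ighm and Igha in 38 and 40 of the PBS libraries. Among the IgG genes of the reference Ighg1 was also the largest. Its median share of the summed Ighg1, Ighg2b, Ighg2c and Ighg3 was 93.1% in HDM.AIR airway and 79.3% in 3 week HDM airway. That share was 93.3% in 3 week PBS airway and 65.2% in PBS.AIR airway. IgG2a reads not assigned to these genes are missing from the sum.

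**Figure D3:**
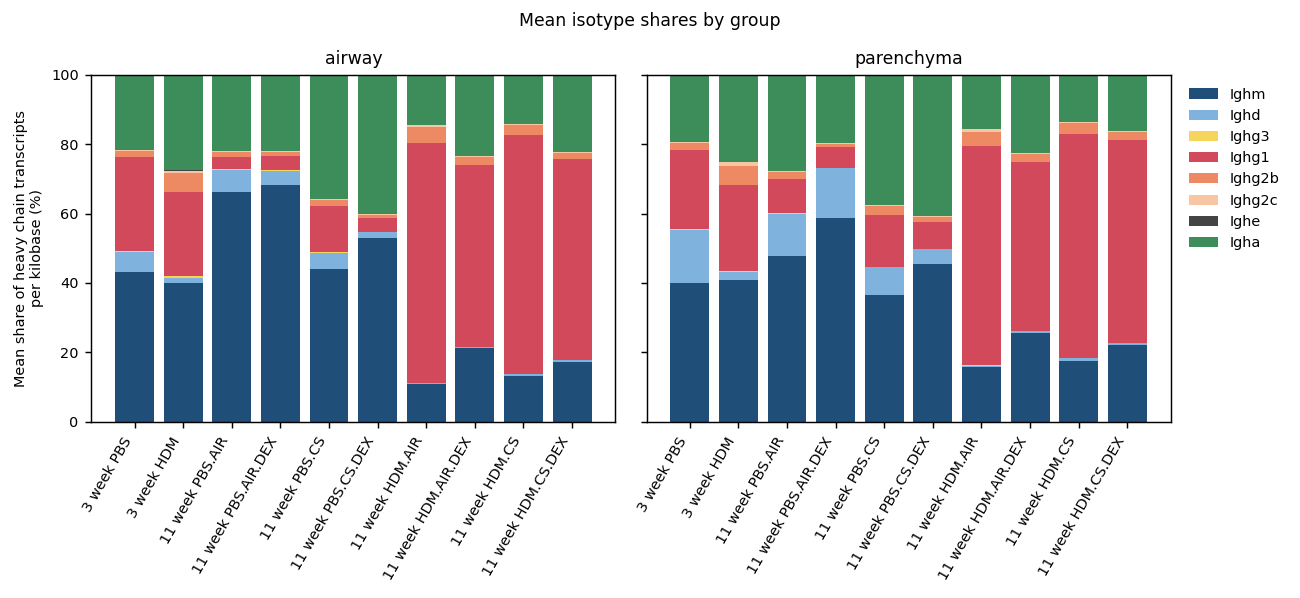
Mean share (%) of the 8 heavy chain classes among heavy chain transcripts per kilobase in each of the 20 groups, airway on the left and parenchyma on the right, stacked to 100. The Ighg1 block is the largest in all 8 groups of 11 week HDM mice, whose median shares were 50.99% to 70.9%, and small in 11 week PBS mice, at medians of 2.18% to 13.4%.

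The log2 ratio of Ighg1 to Ighm counts gives the same balance without a length correction, since gene length drops out of its differences. At 3 weeks its medians were -0.56 and -0.44 in PBS and HDM airway and -0.52 and -0.24 in the parenchyma. At 11 weeks it was -6.98 to -2.44 in PBS.AIR airway and 2.11 to 3.88 in HDM.AIR airway, which did not overlap. In the parenchyma the ranges were -6.55 to 1.90 and 0.96 to 3.61, where X126 gave the highest PBS value. Ighg1 also stood above Igha: the log2 ratio of their counts had a median of -2.78 in PBS.AIR airway and 2.23 in HDM.AIR airway.

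**Figure D4:**
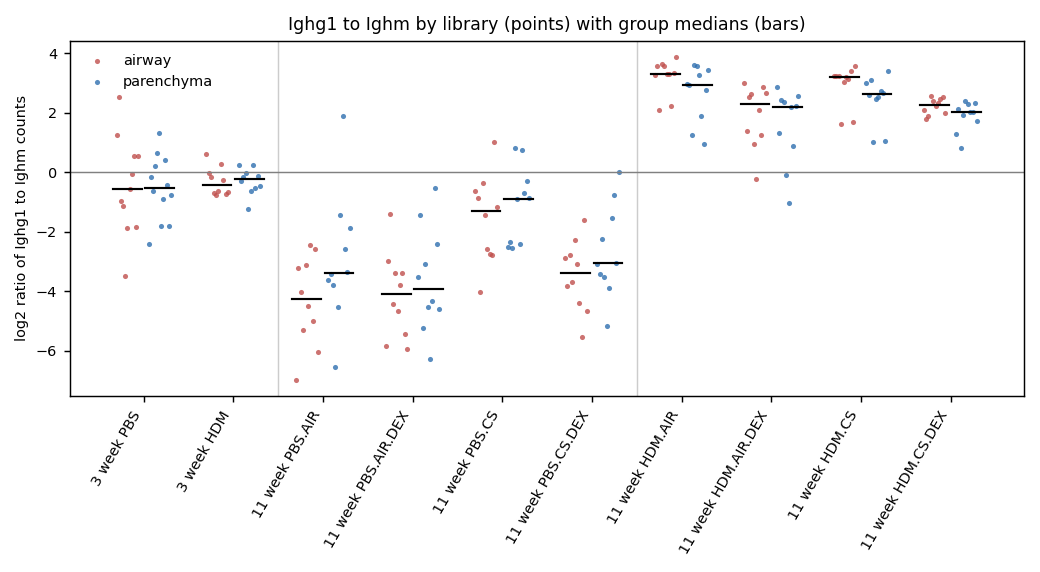
log2 ratio of Ighg1 to Ighm counts in each airway (red) and parenchyma (blue) library by group, with bars at group medians and a line at equal counts. Group medians lie near the line at 3 weeks, between -4.27 and -0.89 in 11 week PBS groups and between 2.02 and 3.32 in 11 week HDM groups.

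The 2 experiments were compared in one fit of all libraries, in which week cannot be told apart from anything else that differed between them, including the HDM schedule. In HDM mice 4 of 9 members were called higher at 11 weeks in the airway, against 2.32% of all genes tested, and the same number in the parenchyma, against 2.89%. These were Ighg1 at log2FC 3.58 ± 0.71 and 3.68 ± 0.66, Ighg2b at 1.75 and 1.78, Ighg2c at 1.96 and 1.45, and Igha at 1.11 and 1.62. Ighm was not called, at 0.06 ± 0.41 and 0.72 ± 0.39. In PBS mice calls ran downward at 11 weeks: 3 of 9 members were called lower in the airway (1.27% of all genes) and 2 in the parenchyma (4.86%, Ighg1 and Ighd), with Ighg1 at -4.17 ± 0.54 and -2.86 ± 0.56. The parenchymal Ighg1 value was -0.73 with edgeR (adjusted p = 0.26) and -3.17 (adjusted p = 2e-07) with edgeR once X126 and X21 were left out. The airway calls of Ighg2b (-1.68) and Igha (-1.04) were lost without these 2 libraries, at -1.24 (adjusted p = 0.1, 3.1e-06 to 0.1 over 11 alternatives) and -0.78 (adjusted p = 0.01, 1e-05 to 0.017 over 11 alternatives).

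Tested as a difference of differences, the HDM effect on Ighg1 was larger at 11 weeks than at 3 weeks by 7.75 ± 0.89 for airway (adjusted p = 2.1e-12) and 6.54 ± 0.86 for parenchyma (adjusted p = 7.4e-11). The lower Ighg1 of 11 week PBS mice enters that difference. It was also larger for Ighg2b (3.43 and 2.55) and Igha (2.14 and 1.78), and in the parenchyma for Pigr (1.30) and Ighm (1.12, adjusted p just under 0.05), the last lost under edgeR (1.02, adjusted p = 0.06, 0.01 to 0.076 over 11 alternatives). This made 3 members in the airway, against 3.04% of all genes, and 5 in the parenchyma, against 6.14%. The parenchymal Ighg2b call was lost in 2 of 11 alternatives, over which its adjusted p was 4.2e-05 to 0.056.

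Smoke was compared with air first in mice without HDM. Smoke alone was called to raise Pigr, Igha and Ighg1 but not Ighm. In the airway 3 of 9 members were called higher, against 1.73% of all genes tested, and in the parenchyma 2 of 9, against 4.21%. Pigr in the parenchyma was 51.3 to 219.9 CPM with a median of 89.7 under PBS.AIR and 525 to 1092 CPM with a median of 846 under PBS.CS (log2FC 3.21 ± 0.14, adjusted p = 1.4e-47), with no overlap between smoke and air. In the airway its log2FC was 1.18 ± 0.15 (adjusted p = 1.5e-10), with 8 of 10 smoke libraries above all air libraries. Igha was 60.9 to 185.8 CPM with a median of 93.5 in PBS.AIR airway and 155.6 to 811 CPM with a median of 200.6 in PBS.CS airway (log2FC 1.38 ± 0.26, adjusted p = 2.8e-05), and its parenchymal difference of 0.77 ± 0.25 passed the adjusted p alone (0.009). Ighg1 rose in the airway from a median of 13.3 to 73.8 CPM (log2FC 2.70 ± 0.49, adjusted p = 1e-05). In the parenchyma Ighg1 was called at 1.78 ± 0.53, but the sign turned to -0.25 with edgeR and -0.26 with DESeq2, and was 2.19 (adjusted p = 0.00048) with edgeR without X126. The direction of this parenchymal difference thus depended on X126 and the method. Ighm had a log2FC of -0.04 ± 0.33 and -0.10 ± 0.30 in the 2 tissues.

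The median share of IgA was larger in PBS mice under smoke than under air. Igha held a median share of 33.8% in PBS.CS airway and 37.6% in PBS.CS parenchyma, against 21.1% and 28.8% under air, and the ranges overlapped. Igha was the leading class in 18 of the 40 libraries of smoke-exposed PBS mice, with or without DEX, and in 2 of the 40 of air-exposed PBS mice, or in 31 and 9 by secreted transcript length. Ighm led in 21 and 37 of these libraries by gene length, and in 8 and 30 by secreted transcript length. Under DEX, smoke was called to raise airway Igha by 1.02 ± 0.25, parenchymal Igha by 1.12 ± 0.28 and Pigr by 2.38 ± 0.14 in the parenchyma, and to change parenchymal Ighd, which fell by 2.21. That is 1 of 9 members higher in the airway, against 0.641% of all genes, and 2 higher and 1 lower in the parenchyma, against 1.97% and 0.822%. The airway Igha call was lost when libraries with a high lymph node list were left out (0.93, adjusted p = 0.057, 0.002 to 0.057 over 12 alternatives).

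In HDM mice the smoke comparison ran the other way. HDM.CS lungs held fewer transcripts of several classes than HDM.AIR lungs: 4 of 9 members were called lower in the airway, against 1.97% of all genes tested, and 6 of 9 in the parenchyma, against 3.46%. Igha was 796 to 4981 CPM with a median of 2389.8 in HDM.AIR and 277 to 1059.8 CPM with a median of 712 in HDM.CS parenchyma (log2FC -1.96 ± 0.33, adjusted p = 1.2e-06), and its airway log2FC was -1.33 ± 0.36. Ighg2b was -1.99 and -2.20, Ighg2c -2.51 and -2.47 and Ighg3 -2.69 and -2.88 in airway and parenchyma, all called lower. Ighg1 was 9412 to 20199 CPM with a median of 17266 in HDM.AIR airway and 1649 to 12440.1 CPM with a median of 6595 in HDM.CS airway, a log2FC of -1.30 ± 0.71 that was not called (adjusted p = 0.22) although 7 of 10 smoke libraries lay below all air libraries. In the parenchyma it was called at -1.71 ± 0.65 (adjusted p = 0.042), a call lost with sample quality weights (-1.53, adjusted p = 0.059, 0.00017 to 0.068 over 12 alternatives). Ighm showed -1.02 ± 0.40 (adjusted p = 0.064) in the airway and -1.5004 ± 0.38 (adjusted p = 0.0014) in the parenchyma. Pigr differed by -0.06 ± 0.17 and -0.27 ± 0.16 and was not called.

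The Ighg1 share overlapped between the same groups. The median Ighg1 share was 68.9% in HDM.AIR and 70.9% in HDM.CS airway, and 65.5% and 66.5% in the parenchyma, while the summed heavy chain level had medians of 9331 and 3604 CPM per kilobase in the airway. Under DEX, the smoke comparison in HDM mice called no member in the airway by limma-voom (0.608% of all genes), with 2 at an unadjusted p under 0.05, 0 called by edgeR and 0 by DESeq2, and 2 of 9 lower in the parenchyma (1.2% of all genes), Ighm at -1.19 and Igha at -1.58. In the airway under DEX, Pigr passed the adjusted p alone at -0.52 ± 0.16 (adjusted p = 0.041).

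The difference between the HDM effect under smoke and under air was tested as an interaction, which uses the PBS groups as well. It was called lower for 5 of 9 members in each tissue, against 3.5% of all genes in the airway and 7.11% in the parenchyma. For Ighg1 the HDM effect was smaller under smoke by 4.002 ± 0.86 in the airway and by 3.49 ± 0.84 in the parenchyma on the log2 scale. The interaction was -3.11 ± 0.81 and -2.85 ± 0.90 for Ighg2b, -2.71 ± 0.44 and -2.73 ± 0.41 for Igha, and -1.24 ± 0.22 and -3.48 ± 0.21 for Pigr. Both the higher values of smoke-exposed PBS mice and the lower values of smoke-exposed HDM mice enter these terms. For Pigr, smoke differed from air by 1.18 and 3.21 in PBS mice and by -0.06 and -0.27 in HDM mice. Ighg2c was also called in the airway (-3.77, adjusted p = 0.039) and Ighm in the parenchyma (-1.40, adjusted p = 0.016). The Ighg2c call was lost in 2 of 12 alternatives, over which its adjusted p was 0.0019 to 0.31. The parenchymal Ighg1 term was -1.55 with edgeR (adjusted p = 0.11) and -3.99 (adjusted p = 2.7e-06) with edgeR without X126.

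**Figure D5:**
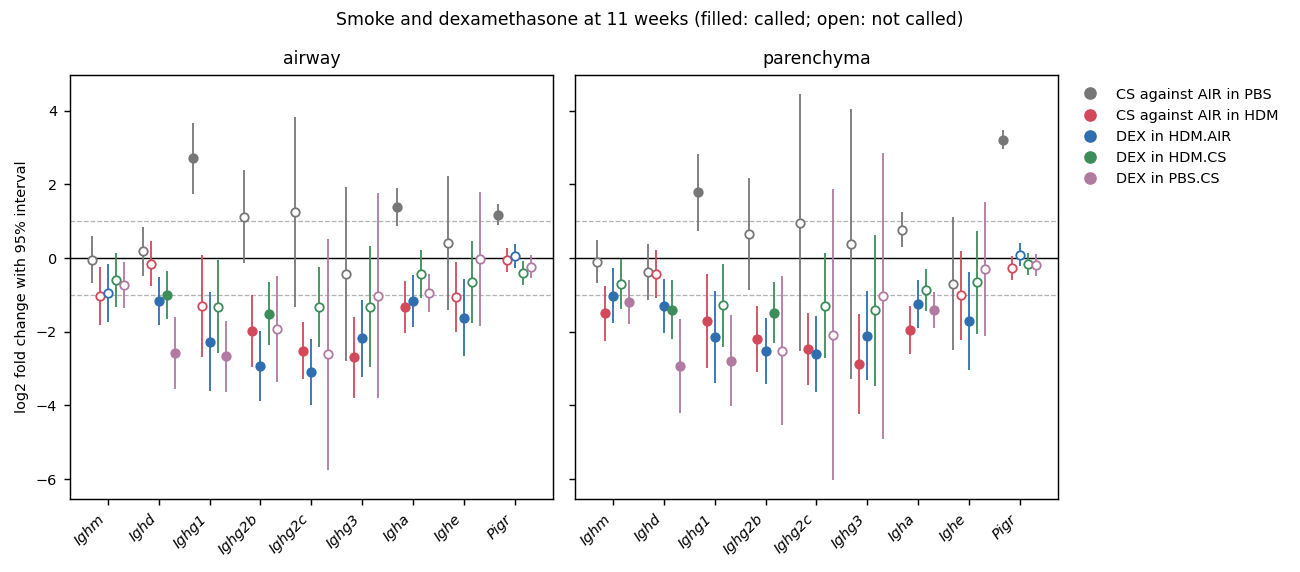
log2FC with 95% intervals of 5 smoke and DEX comparisons (colours) for the 9 members at 11 weeks, in airway and parenchyma. Filled points were called, open points were not, and dashed lines mark a log2FC of 1 and -1. Smoke against air lies above 0 in PBS mice for Pigr (1.18 and 3.21) and below 0 in HDM mice for Igha (-1.33 and -1.96), and DEX in HDM.AIR mice lies below 0 for the 8 heavy chain genes and at 0.05 and 0.09 for Pigr.

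DEX in the last week of HDM exposure was followed by lower antibody transcripts. In HDM.AIR mice 7 of 9 members were called lower in the airway, against 5.07% of all genes tested, and 8 of 9 in the parenchyma, against 5.4%, and Pigr was called in neither. Ighg1 was 9412 to 20199 CPM with a median of 17266 without DEX and 1398 to 9619 CPM with a median of 3528 with DEX in the airway (log2FC -2.27 ± 0.68, adjusted p = 0.0065), and 9 of 10 DEX libraries lay below all others. In the parenchyma it was 3936 to 19863 CPM with a median of 9575 and 655 to 5802 CPM with a median of 2399.9 (log2FC -2.13 ± 0.64, adjusted p = 0.0061). The rarer IgG classes fell by similar or larger sizes, Ighg2b with -2.93 ± 0.48 and -2.51 ± 0.46, Ighg2c with -3.09 and -2.60, and Ighg3 with -2.18 and -2.10. Igha changed by -1.16 ± 0.36 and -1.24 ± 0.34 and Ighd by -1.16 ± 0.34 and -1.30 ± 0.38. Ighm was at -0.95 ± 0.40 in the airway, which was not called (adjusted p = 0.061), and at -1.02 ± 0.38 in the parenchyma (adjusted p = 0.035), a call that ended at -0.98 with edgeR (adjusted p = 0.017, 0.0051 to 0.047 over 12 alternatives) and at -0.96 without the libraries high in the lymph node list. Ighe was called at -1.62 and -1.71, and lost with edgeR at -1.35 (adjusted p = 0.12, 0.00027 to 0.35 over 11 alternatives) and -1.49 (adjusted p = 0.15, 0.037 to 0.28 over 11 alternatives). Without X32, whose Ighg1 level was 1824.8 CPM, the parenchymal calls were 7 of 9, with Ighg1 at -2.11, and that of Ighe was lost at -1.70 (adjusted p = 0.054). Pigr, at medians of 1517 and 1556 CPM in the airway, differed by 0.05 ± 0.16.

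The median share of IgG1 was lower, and that of IgA higher, with DEX than without, as a description. The median share of Ighg1 was 68.9% without and 54.8% with DEX in the airway, and 65.5% and 50.99% in the parenchyma. The median share of Igha was 14.3% and 23.6% in the airway, and every DEX library there held a larger Igha share than every library without DEX. The log2 ratio of Ighg1 to Igha ran from 1.94 to 2.498 without DEX and from 0.48 to 1.95 with DEX, and 9 of 10 DEX libraries lay below all others in each tissue. With smoke the median Ighg1 share was 70.9% without and 56.8% with DEX in the airway, and 66.5% and 60.5% in the parenchyma. In HDM.CS mice DEX was called to lower 2 of 9 members in each tissue (background 1.93% and 1.92%), Ighd at -1.002 and -1.40 and Ighg2b at -1.51 and -1.48. The airway Ighd call sat at the threshold and was lost with edgeR (-0.91, adjusted p = 0.18, 0.0036 to 0.19 over 12 alternatives).

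Without HDM, the members lower under DEX were Ighd, Igha, Ighg1 and Ighm. In PBS.AIR mice 1 of 9 members was called lower in each tissue, against 1.85% and 2.14% of all genes. It was Ighd in the airway (log2FC -1.37 ± 0.41, adjusted p = 0.012, lost with edgeR at -1.06, adjusted p = 0.072, 0.0057 to 0.073 over 12 alternatives) and Igha in the parenchyma. EdgeR called Ighe higher under DEX in that airway comparison, where X67 is a DEX library. Parenchymal Igha was 25.1 to 114.5 CPM with a median of 75.8 without and 10.04 to 25.01 CPM with a median of 16.6 with DEX (log2FC -1.76 ± 0.28, adjusted p = 1.7e-07), and the groups did not overlap, although the highest DEX library (25.01 CPM) lay next to the lowest of the others (25.1 CPM). EdgeR called 4 members lower in that parenchymal comparison, Ighg1 among them at -3.38 (adjusted p = 7.9e-06), where X126 is one of the libraries without DEX, and 2 once X126 was left out. In PBS.CS mice 2 of 9 were called lower in the airway (2.29% of all genes) and 4 of 9 in the parenchyma (2.39%). These were Ighd at -2.57 ± 0.50 and -2.93 ± 0.65 and Ighg1 at -2.67 ± 0.49 and -2.78 ± 0.63 in both tissues, with Ighm (-1.19) and Igha (-1.41) in the parenchyma. The difference between the DEX effect in HDM mice and in PBS mice was called for no member by limma-voom. In air the counts were 3 at an unadjusted p under 0.05, 1 called by edgeR and 1 by DESeq2 in the airway and 1 at an unadjusted p under 0.05, 0 called by edgeR and 0 by DESeq2 in the parenchyma, beside 1.26% and 2.12% of all genes, and under smoke 1 at an unadjusted p under 0.05, 0 called by edgeR and 0 by DESeq2 in the airway and 1 at an unadjusted p under 0.05, 0 called by edgeR and 0 by DESeq2 in the parenchyma, beside 0% and 0%. The member that edgeR called in air was Ighe (-5.11, adjusted p = 0.009), with X67 among its PBS libraries, and the one that DESeq2 called was Ighg2b (-2.08, adjusted p = 0.049). For Ighg1 in air airway libraries gave a difference of -1.88 ± 0.90 (adjusted p = 0.24), and parenchyma libraries one of -0.59 ± 1.004 (adjusted p = 0.77).

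Airway and parenchyma were compared within each group. In PBS mice at 3 weeks 4 of 8 members were called higher in the airway, against 10% of all genes tested: Ighm (1.52 ± 0.28), Ighg1 (1.58), Igha (1.60) and Pigr (1.74). In PBS.AIR mice Ighm (1.60 ± 0.31) and Pigr (2.16 ± 0.13) were called, 2 of 9 against 13.4%. With DEX as well, in PBS.AIR.DEX mice, Ighm (2.04), Igha (1.91) and Pigr (1.56) were called, 3 of 9 against 12.7%. In PBS.CS mice Pigr was not called, at 0.12 ± 0.15, while Ighm (1.67), Ighg1 (1.205) and Igha (1.35) were called, 3 of 9 against 11.3%. In PBS.CS.DEX mice Ighm (2.12) and Igha (1.80) were called, 2 of 9 against 11.8%. EdgeR called more members than limma-voom in each of these 5 PBS groups, among them Ighg2b, Ighg2c and Ighg3 in some. The Ighg1 calls in PBS mice at 3 weeks and in PBS.CS mice were lost with sample quality weights, at 0.96 (adjusted p = 0.086, 4.1e-07 to 0.086 over 11 alternatives) and 0.79 (adjusted p = 0.11, 0.0048 to 0.11 over 12 alternatives). In HDM mice Igha was the one member called, at 1.10 at 3 weeks (8% of all genes), 1.17 in HDM.CS (4.88%) and 1.60 in HDM.CS.DEX (5.81%). In HDM.AIR mice limma-voom called none (3.04% of all genes in either direction), with 2 at an unadjusted p under 0.05, 0 called by edgeR and 0 by DESeq2. In HDM.AIR.DEX mice it also called none (3.39%), with 0 at an unadjusted p under 0.05, 0 called by edgeR and 0 by DESeq2. The HDM effect without smoke at 11 weeks was smaller in the airway than in the parenchyma for Pigr (-2.03 ± 0.21, adjusted p = 1.4e-13) and Ighm (-1.36 ± 0.51, adjusted p = 0.037), 2 of 9 members against 7.46% of all genes.

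Other genes of the antibody response were counted from hand-written lists. Under HDM without smoke at 11 weeks, 15 of 16 plasma cell and secretion genes were called higher in the airway with a median log2FC of 2.05, 13 of 14 B cell genes with 1.57, 9 of 10 germinal centre genes with 2.24 and 3 of 12 class switch genes with 0.23, beside a median of 0.00 and 10.6% called higher over all genes tested. Jchain, which links IgM and IgA polymers, rose by 5.23 and 6.47 in airway and parenchyma, and Igkc, the kappa light chain, by 5.67 and 6.43. Mzb1, a chaperone of antibody assembly, rose by 4.6 and 4.83. Ms4a1, the B cell surface protein CD20, rose by 1.58 and 1.75.

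At 3 weeks the germinal centre list had the largest median of the B cell, plasma cell and germinal centre lists in the airway. Jchain had risen by 2.51 and 3.47 and Igkc by 2.60 and 3.41. In the airway 8 of 10 germinal centre genes (median log2FC 2.91), 11 of 14 B cell genes (1.67) and 9 of 16 plasma cell genes (1.13) were called higher, beside a median of -0.07 and 12.1% called higher over all genes. Of the cytokines and helper signals of switching, 9 of 11 were called higher in the airway (median 2.23), among them Il21 (6.18) and Il13 (4.93). From 3 to 11 weeks of HDM, 4 of 12 of this list were called lower in the airway and 7 of 12 in the parenchyma, where Il10 differed by -2.18 and Il13 by -1.79, in the same comparison in which Ighg1 and Igha were higher. The share of all genes called lower there was 1.45% and 2.07%.

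The Fc and immunoglobulin receptor list held 7 of 11 genes called higher in the 11 week airway without smoke (median 1.79) and 7 of 11 in the parenchyma (1.67), against 10.6% and 13% of all genes. Fcgr2b, the inhibitory IgG receptor, rose by 2.46 and 3.02, and Fcgr3, a low-affinity activating IgG receptor, by 2.35 and 2.32. Fcamr, a receptor for IgA and IgM, rose by 1.79 in the airway and 2.95 in the parenchyma. Smoke alone was called to raise 5 of 11 of the list in the parenchyma and 0 of 11 in the airway, against 4.21% and 1.73% of all genes, and none of the plasma cell list in either, beside the higher Pigr described above. In PBS mice under smoke, Jchain was not called, at 0.65 and 0.57.

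Marker lists of lymphoid tissue moved with the smoke and DEX comparisons in HDM mice. Under smoke, 7 of 10 germinal centre genes were called lower in HDM parenchyma (median -1.47), 7 of 16 plasma cell genes (-0.72), 6 of 14 B cell genes (-0.86) and 4 of 10 lymph node genes (-1.02), beside -0.01 and 3.46% called lower over all genes. Under DEX these counts in HDM.AIR airway were 8 of 10 (-2.02), 8 of 16 (-0.92), 10 of 14 (-1.23) and 5 of 10 (-1.39), beside 0.00 and 5.07%. The summed lymph node list was 409 to 1397 (median 566) CPM in HDM.AIR airway, 267 to 948 (median 361) in HDM.CS airway, 174.7 to 716 (median 288) in HDM.AIR.DEX airway and 225 to 1888 (median 429) in PBS.AIR airway. The summed plasma cell list was 7345 to 13612 (median 10808), 2366 to 7874 (median 4867), 2828 to 6179 (median 3713) and 872 to 1534 (median 982) in the same groups. The part of lymphoid tissue in the heavy chain differences was not tested. Without the libraries high in the lymph node list, Ighm (-1.10) and Ighe (-1.44) were added to the airway calls of HDM.CS against HDM.AIR, and no call of that comparison was lost. Jchain changed by -1.24 and -1.78 with smoke and by -1.67 and -1.56 with DEX.

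The genes most like 4 of the members were ranked by Pearson's r of log2 CPM over all libraries, as a description, since libraries of one group share their exposure. Ighm was most like Mzb1 (0.95), Jchain (0.94), Blnk (0.93), Eaf2 (0.91) and Irf4 (0.91). Igha was most like Jchain (0.98), Derl3 (0.95), Mzb1 (0.93), Nuggc (0.92) and Tnfrsf17 (0.92). For Ighg1 the first 5 were Jchain (0.94), Derl3 (0.93), Il17a (0.93), Mzb1 (0.92) and Oosp1 (0.90), where Il17a codes for a cytokine of T helper 17 cells and the others but Oosp1 act in antibody secretion. Pigr had a set of its own, Lemd1 (0.93), Orm1 (0.93), Vnn3 (0.92), Cd177 (0.91) and Speer4c (0.91). Among the members, r was 0.94 between Ighg1 and Ighg2b, 0.96 between Igha and Ighg2b, 0.68 between Ighm and Pigr, and 0.13 between Ighd and Pigr.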

How the data were processed

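RNA was sequenced from airway and parenchyma libraries of female Balb/C mice. The authors deposited a table of estimated counts per Ensembl gene. The submitters' processing notes name bcl2fastq 2.20.0.422, STAR 2.5.1b, RSEM 1.2.31, kallisto 0.44.0 and mm10, and which of RSEM and kallisto made the table is not given in the sources used here. Fractional values made up 20.3% of those above 0. Counts were rounded for the fits and the CPM levels. They were left unrounded for the shares, log2 ratios and leading classes described in the results. Strand-specific counting was not stated in the sources used here, so reads from overlapping antisense genes may be included. Symbols, coordinates and exon lengths came from GENCODE M21 (GRCm38), which matched 42462 of 43346 identifiers without version.

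Genes were kept where 9 or more libraries reached the CPM that 10 counts make in a library of median size. The counts were TMM-scaled (edgeR 4.0.16) and fitted with limma-voom (limma 3.58.1, R 4.3.3), with 1 mean per group, separately for 43 libraries of the 3 week experiment (17377 genes) and 160 of the 11 week experiment (18250 genes), and together for comparisons of the weeks (18528 genes). P-values were adjusted by Benjamini-Hochberg over all genes of a comparison, in each of 50 comparisons, and the threshold of adjusted p under 0.05 with an absolute log2FC of at least 1 followed the study's methods. Errors after ± are standard errors. Percentages of all genes beside counts of members were computed in the same fit. Comparisons within an exposure family share control libraries, and they are set side by side only. Shares and log2 ratios (1 count added) are descriptions without tests. The scripts were tested on simulated data. DESeq2 1.42.0 and edgeR's quasi-likelihood test were alternatives, beside other scalings, filters, quality weights and libraries left out. The settings that leave out libraries (X21 with X126, X32, and the libraries high in lymph node genes), edgeR without X21 and X126, and the secreted transcript lengths were chosen after seeing the data.

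The members and the gene lists were chosen with earlier results of these data known. Genes named beside the members were Jchain, Mzb1, Igkc and Ms4a1 in any comparison, the 2 called genes of a list with the largest absolute log2FC, and the 5 genes most correlated with each of 4 members. The lists counted in the text hold B cell, plasma cell and secretion, germinal centre, class switch recombination, switch cytokine, Fc and immunoglobulin receptor, lymph node, alveolar and smooth muscle genes. Some genes of these lists are counted but not reported here by name.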

Additional observations from a re-analysis of the deposited data

Results flagged for a closer look

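In 12 of the combinations of member and group tested, the highest or lowest library stood apart by a gap to its nearest neighbour larger than Dixon's limit, taken on log2(CPM + 0.1). The 9 members were taken in each group of 10 libraries. Chance alone flags about 1 in 20 groups, so many of the 12 flags may be due to chance. The 12 values came from 11 libraries, and 5 further combinations at 3 counts or fewer were not tested. The 3 week PBS groups, of 11 airway and 12 parenchyma libraries, were not tested either. The high Ighg1 value of X21 was therefore outside this test. Among the lowest values were Ighg2b at 31.4 CPM in a 3 week HDM parenchyma library (X4), Ighg1 at 896 CPM in an HDM.CS parenchyma library (X178) and Ighg2b at 0.0778 CPM in a PBS.CS.DEX parenchyma library (X176). Among the highest were Ighm at 972 CPM in a PBS.AIR airway library (X65) and Igha at 811 CPM in a PBS.CS airway library (X174). One PBS.AIR.DEX airway library (X67) held the highest value of its group for both Ighg3, at 13.7 CPM, and Ighe, at 1.89 CPM. Ighg3 also stood apart at 0.141 CPM in PBS.AIR.DEX parenchyma (X8), at 4.73 CPM in HDM.CS.DEX airway (X39) and at 4.76 CPM in HDM.CS.DEX parenchyma (X60). Ighe stood apart at 0.179 CPM in PBS.AIR parenchyma (X146) and at 0.468 CPM in PBS.CS airway (X113). The lymph node list of X65, X67 and X39 was 4.41, 3.05 and 2.61 times the median of their groups. The other flagged libraries were not over 2 times.

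The effect of one exposure differed between settings in 20 tests of the difference itself, by limma-voom and on the log2 scale. Some of these calls were lost under the alternatives described in the results and below. The HDM effect under smoke less that under air was -4.00 for Ighg1, -3.77 for Ighg2c, -3.11 for Ighg2b, -2.71 for Igha and -1.24 for Pigr in the airway. In the parenchyma the same difference was -3.49 for Ighg1, -3.48 for Pigr, -2.85 for Ighg2b, -2.73 for Igha and -1.40 for Ighm. The HDM effect at 11 weeks less that at 3 weeks was 7.75 for Ighg1, 3.43 for Ighg2b and 2.14 for Igha in the airway. In the parenchyma it was 6.54 for Ighg1, 2.55 for Ighg2b, 1.78 for Igha, 1.30 for Pigr and 1.12 for Ighm. The HDM effect at 11 weeks in air, airway less parenchyma, was -2.03 for Pigr and -1.36 for Ighm.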

How the results depend on the processing

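Across 255 results and 2986 values under the alternatives, 2773 kept their direction and their side of the threshold, 87 lost a call, 8 turned direction and the rest gained a call or moved beyond the replicate spread. Called member comparisons between airway and parenchyma numbered 17 with limma-voom and 31 with edgeR, with DESeq2 and with edgeR without X21 and X126. Within single comparisons, edgeR against limma-voom called 4 against 2 members for DEX in PBS.CS airway, 5 against 2 for CS in HDM.DEX parenchyma, and 4 against 2, 8 against 3, 5 against 3 and 5 against 2 between the tissues in PBS.AIR, PBS.AIR.DEX, PBS.CS and PBS.CS.DEX mice. The summed counts of the other 6 families stayed within 1.5 times under every alternative run. The Ighg1 share in 3 week HDM parenchyma was 24.96% with gene lengths and 31.02% with secreted transcript lengths, which moved 20 of 60 share medians of Ighm, Ighg1 and Igha beyond the library spread, against 5 with shares of counts, and which changed the leading class at 3 weeks and in PBS mice. The values that turned direction were Ighg1 for CS against AIR in PBS parenchyma (edgeR -0.2485, DESeq2 -0.2633), Ighg3 for DEX in PBS.AIR airway (edgeR 0.6598, DESeq2 0.6832, edgeR without X21 and X126 0.6599) and Ighg3 in the CS.DEX airway under HDM (edgeR -0.3047, DESeq2 -0.3241, edgeR without X21 and X126 -0.3047). With edgeR without X21 and X126 the Ighg1 value was 2.194, as described in the results. Why the Ighg3 values turned was not tested. Keeping genes of any count moved the median of all genes by 0.144 on the log2 scale in 1 contrast, with 4 contrasts over 0.1, and scaling without immunoglobulin genes by 0.116 in 3 week HDM parenchyma. With a filter at a CPM of 10, the Ighg2c calls for HDM in the 6 comparisons under DEX, smoke or both were lost, at adjusted p of 0.055 to 0.3 by limma-voom, with log2FC still 3.641 to 7.176. Leaving out X32, chosen after seeing the data, ended 3 calls, of Ighe for DEX in HDM.AIR parenchyma (-1.697), of Igha for the PBS weeks in the airway (-0.9801) and of Ighm for the HDM effect between weeks in the parenchyma (1.09). With sample quality weights the calls of Ighg3 for DEX in HDM.AIR parenchyma (-1.417) and of Ighm for the HDM effect between tissues (-1.163) were lost. No paired analysis was run, because the library codes give the groups no shared replicate numbers and no label says which libraries come from one mouse. If airway and parenchyma came from the same mice, their libraries are not independent, and the comparisons between tissues treat them as if they were. Depth limited Ighe, at 0 counts in 96 libraries.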
